A study of Mus musculus with 11 samples.

Results

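The resident macrophage and complement C1q genes of the mouse liver comprised 10 genes of the 31053 in the count matrices: Clec4f, Vsig4, Timd4, Cd5l, Marco, Folr2, Cd163, C1qa, C1qb and C1qc. They were taken by gene symbol from a fixed list, chosen with earlier results of these data known, and were followed over 4 time points and across spots. Gene expression was measured with Visium, in which barcoded spots of 55 µm, 100 µm apart, capture polyadenylated RNA from a frozen section. A spot can hold several cells. The 11 liver sections came from mice for which the labels give no sex, age or strain. The methods of the study state males of 8 to 12 weeks by default and name C57BL/6JCrl mice. Of the sections, 3 were uninjured (0 h, numbered 2, 3 and 4) and 8 were taken after fasting and an intraperitoneal injection of acetaminophen (APAP). The injured sections bear letters: 2 each at 24 h and 36 h (A, B) and 4 at 48 h (A, B, C, D). The methods of the study state 1 mouse per time point for this assay. Sections of a time point were therefore read as sections of 1 liver, and a p-value covers the spread between sections only. Mouse, batch and time cannot be told apart.

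Kupffer cells are the macrophages that live in the liver sinusoids, where they clear bacteria, dying cells and haemoglobin from portal blood. C1q, a complex of A, B and C chains made largely by macrophages rather than hepatocytes, starts the classical complement cascade and also tags dying cells for uptake. APAP is oxidised by hepatocytes around the central vein and kills them there. Monocytes that enter the dead areas become macrophages, which share some of the resident genes.

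The 3 C1q genes lay side by side on chromosome 4, on the minus strand. In GRCm38, C1qb spanned positions 136880129 to 136886187, C1qc 136889804 to 136893065 and C1qa 136895917 to 136898803, with gaps of 3616 and 2851 bases and a total of 18675 bases from the first to the last. The 7 resident genes were on chromosomes 6 (Clec4f and Cd163), X (Vsig4), 11 (Timd4), 3 (Cd5l), 1 (Marco) and 7 (Folr2). RefSeq promoter windows (GRCm38.p6, 250 bases before to 50 after the RefSeq start, 300 bases each) were available for 9 of the 10 genes. The RefSeq start need not match the gene positions above, and for C1qc it lay inside the span given there. They were searched on both strands for TGCTGA, the half-site bound by MAF factors, and for GAGGAAGT, a strong site for the macrophage factor PU.1. The MAF half-site was in 19.5% of all 32817 promoter windows and in those of Clec4f, Vsig4, Timd4, Cd5l, Folr2 and C1qb, while the PU.1 site was in 3.20% of all windows and, among these genes, in that of C1qc. A match is a description of the letters in the window and no evidence of binding. The windows of Clec4f and Marco are shown because their transcripts moved in opposite directions after injury, and those of C1qb and C1qc because these neighbours of 1 complex did not keep a fixed ratio. Capitals mark a MAF half-site or PU.1 site on either strand. The windows, all on the minus strand, were chr6:83656067-83656366, chr1:120504975-120505274, chr4:136886151-136886450 and chr4:136892865-136893164.
Clec4f: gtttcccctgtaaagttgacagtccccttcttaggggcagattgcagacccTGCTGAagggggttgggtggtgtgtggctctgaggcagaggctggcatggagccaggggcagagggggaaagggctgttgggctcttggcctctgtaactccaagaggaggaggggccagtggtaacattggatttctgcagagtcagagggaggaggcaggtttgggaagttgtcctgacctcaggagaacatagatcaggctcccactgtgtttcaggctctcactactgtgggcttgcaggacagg
Marco: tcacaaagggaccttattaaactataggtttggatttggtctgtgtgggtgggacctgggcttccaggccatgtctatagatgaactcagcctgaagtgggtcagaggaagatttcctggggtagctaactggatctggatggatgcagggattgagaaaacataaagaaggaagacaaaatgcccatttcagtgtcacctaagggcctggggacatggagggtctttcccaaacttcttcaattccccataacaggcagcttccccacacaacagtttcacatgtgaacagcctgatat
C1qb: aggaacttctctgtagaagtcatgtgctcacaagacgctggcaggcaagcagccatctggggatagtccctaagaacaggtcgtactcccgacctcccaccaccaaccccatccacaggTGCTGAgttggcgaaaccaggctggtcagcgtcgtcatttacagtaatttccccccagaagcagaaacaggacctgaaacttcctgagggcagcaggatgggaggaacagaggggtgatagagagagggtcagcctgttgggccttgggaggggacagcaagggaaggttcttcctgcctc
C1qc: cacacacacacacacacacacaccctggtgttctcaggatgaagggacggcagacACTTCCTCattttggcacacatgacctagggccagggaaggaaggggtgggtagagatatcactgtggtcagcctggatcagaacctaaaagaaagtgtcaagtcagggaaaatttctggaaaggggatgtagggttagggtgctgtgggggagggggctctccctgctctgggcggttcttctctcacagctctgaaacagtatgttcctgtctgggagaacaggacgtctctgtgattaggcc

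The sections held 1490 to 3466 spots that passed the filter, with 31292663 to 67045372 unique molecular identifiers (UMIs, counted molecules) in all and a median of 15168.5 to 29950 per spot. Levels are given as CPM, the UMIs of a gene scaled to a common section total after TMM correction. A gene was called where the adjusted p was under 0.05. All 10 genes passed the filter on low counts among the 14821 genes tested. UMIs of these genes per spot off the tissue were 3.94% to 59.0% of those per spot on the tissue. Section 48 h A was highest, with 34.9% to 59.0% over the 10 genes, and whether its deposited tissue mask leaves out tissue was not tested.

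At 24 h, 4 of the 7 resident genes had fallen, Marco alone had risen, and none of the 3 C1q genes was called. These 5 of 10 stand beside 41.7% of all 14821 genes. Clec4f, a galactose-binding lectin that in mice marks Kupffer cells, measured 145, 158 and 167 CPM in the 0 h sections, against 87.9 and 66.7 in those of 24 h. The 36 h sections had 83.4 and 106 CPM, and the 48 h sections 91.0, 106, 145 and 160. All 4 sections at 24 h and 36 h lay below every 0 h section, whereas at 48 h sections C and D reached the 0 h range and A and B did not. The fit gave a log2 fold change of −1.02 ± 0.24 (SE; adjusted p = 0.0062) at 24 h and −0.72 ± 0.24 (adjusted p = 0.041) at 36 h, against −0.32 ± 0.19 (adjusted p = 0.20) at 48 h. In bulk sums over spots, fewer Kupffer cells and less of a transcript per cell cannot be told apart.

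Vsig4, a complement receptor that binds C3 fragments, fell from 59.2 ± 4.67 CPM (SD, n = 3) to 33.6 ± 0.255 (n = 2) at 24 h, with a log2 fold change of −0.82 ± 0.26 (adjusted p = 0.027). Timd4, a phosphatidylserine receptor with which Kupffer cells take up dying cells, stood at 13.6, 15.4 and 14.3 CPM at 0 h and 9.46 and 6.54 at 24 h (log2 fold change −0.85 ± 0.26, adjusted p = 0.022). Folr2, folate receptor beta, fell from 32.8 ± 1.91 to 16.9 ± 3.63 CPM (−0.95 ± 0.30, adjusted p = 0.027). For each of these 3 genes both 24 h sections lay below all 0 h sections. Cd163, the scavenger receptor for haemoglobin bound to haptoglobin, was at 14.7 ± 0.243 CPM at 0 h and 15.1 ± 2.42 at 24 h. Its log2 fold change was 0.03 ± 0.29 (adjusted p = 0.94), an estimate smaller than its SE.

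Marco, a scavenger receptor with a collagen-like stalk that binds bacteria and particles, went the other way. Its levels were 16.4, 13.5 and 18.4 CPM at 0 h, 254 and 273 at 24 h, with 127 and 217 for 36 h. Levels in the 48 h sections were 124, 91.5, 157 and 113 CPM. Every injured section was above every 0 h section, and the 24 h sections were the highest. The log2 fold changes against 0 h were 4.04 ± 0.27 at 24 h (adjusted p = 2.1e-05), 3.42 ± 0.26 at 36 h (adjusted p = 7.6e-05) and 2.92 ± 0.24 at 48 h (adjusted p = 2.4e-05). Cd5l, a secreted scavenger protein of macrophages, was at 126, 136 and 138 CPM at 0 h, 201 and 157 at 24 h, and 143 and 179 at 36 h. In the 48 h sections it was at 176, 199, 322 and 232 CPM. All 8 injured sections were above the 0 h sections. The fit called Cd5l at 48 h, by 0.80 ± 0.19 on the log2 scale (adjusted p = 0.0069). The value at 24 h was 0.42 ± 0.22 (adjusted p = 0.15) and that at 36 h 0.27, also short of the threshold.

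The C1q chains were not called at 24 h or 36 h. C1qb was at 140, 150 and 171 CPM at 0 h, 190 and 173 at 24 h, and 132 and 242 at 36 h. In the 48 h sections it was at 179, 194, 369 and 311 CPM. These sections were all above 0 h but split into a lower pair (A and B) and a higher pair (C and D), and the log2 fold change was 0.78 ± 0.27 (adjusted p = 0.042). C1qc was at 123, 130 and 135 CPM at 0 h, 99.2 and 87.9 at 24 h, and 125, 135, 250 and 210 at 48 h. C1qa was at 136 ± 13.7 CPM (SD, n = 3), 95.9 ± 12.1 (n = 2) and 146 ± 46.6 (n = 4) at these times. Both had lower levels in each 24 h section than in any 0 h section. Their log2 fold changes, −0.47 ± 0.36 for C1qc (adjusted p = 0.32) and −0.51 ± 0.38 for C1qa (adjusted p = 0.31), did not pass the test. Sections of a time point differed widely: the sum of the 3 chains was 281 and 602 CPM at 36 h (A, B) and ran from 410 to 810 at 48 h.

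**Figure D1:**
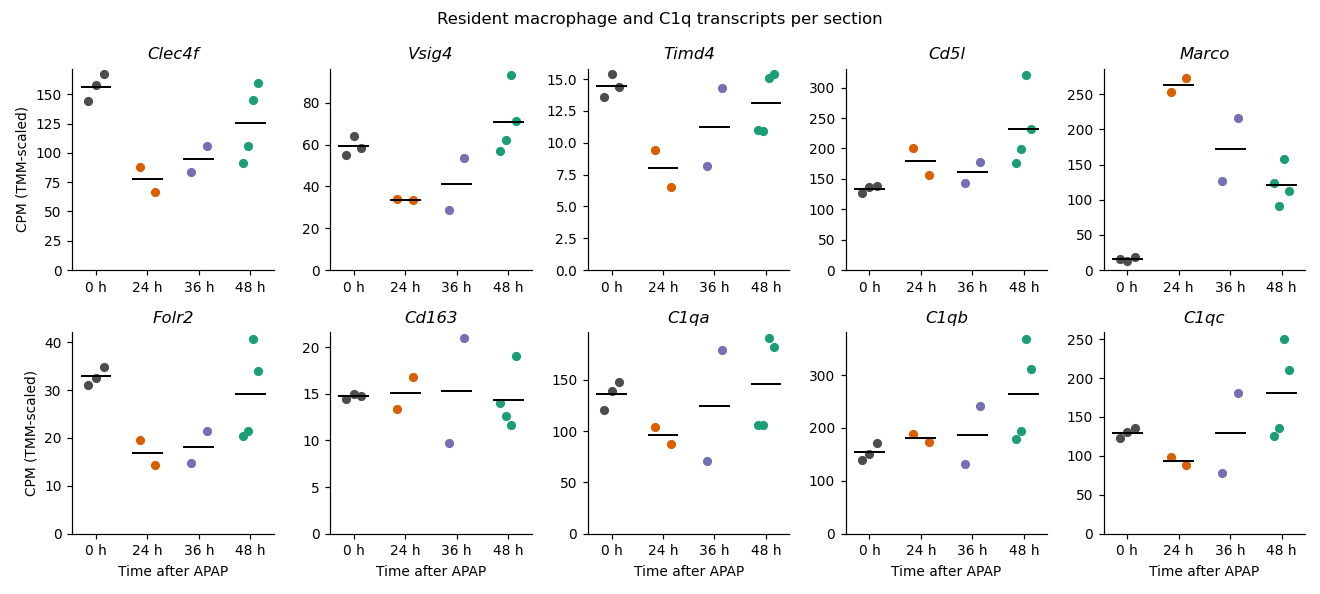
Level of each of the 10 genes in CPM after TMM scaling (y axis, from 0) by time after APAP (x axis; 0 h is uninjured). Each point is a section and each line the mean of its time point. The 24 h sections lie below all 0 h sections for Clec4f, Vsig4, Timd4 and Folr2 and above them for Marco, and the 4 sections at 48 h are spread widely for the C1q chains.

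At no time was the count of called genes far above the background of all genes. At 36 h 29.2% of all genes were called against 2 of the 10 (Clec4f and Marco), and at 48 h 44.2% against 3 (Cd5l, Marco and C1qb). The median log2 fold change of the 7 resident genes was −0.82, −0.36 and −0.04 at 24 h, 36 h and 48 h. That of the C1q chains was −0.47, 0.00089 and 0.48, and that of all genes 0.05, 0.05 and 0.01. From 24 h to 48 h, 4 of the 10 genes were called (34.1% of all genes). Vsig4 rose by 1.08 ± 0.25 on the log2 scale (adjusted p = 0.0085), Timd4 by 0.71 ± 0.24 (adjusted p = 0.045) and Clec4f by 0.70 ± 0.23 (adjusted p = 0.035). Marco fell by 1.12 (SE 0.23, adjusted p = 0.0049). This comparison and those against 0 h share sections, so they are not independent of each other. From 24 h to 36 h 15.6% of all genes and from 36 h to 48 h 3.05% were called by edgeR, and none of the 10. Over all genes, 4941 and 3042 passed an unadjusted p under 0.05 in these comparisons. DESeq2 called 1 of the 10 from 36 h to 48 h.

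These counts rested in part on single sections and on the scaling. Without 24 h B, 1 of the 10 genes was called at 24 h, and without 24 h A or 0 h 3, 3 were. At 36 h 1 was called without any of the 0 h sections or without 36 h A, and Clec4f lost its call there in 5 of the 11 fits that left out a section. C1qb at 48 h, and Timd4 from 24 h to 48 h (0.47 on the log2 scale without 24 h B), each lost theirs in 7 of them. From 24 h to 48 h, 1 was called without 24 h A or without 24 h B, and 2 without 48 h C or without 48 h D. Scaling by the total count instead of TMM raised the median log2 fold change of all genes by 0.326 at 24 h, 0.437 at 36 h and 0.526 at 48 h. The share of calls that were higher went from 55.4% to 80.4%, 57.5% to 94.1% and 52.7% to 93.7%. Between injured times the median moved by 0.110 (24 h to 36 h), 0.0905 (36 h to 48 h) and 0.200 (24 h to 48 h), with shares of 45.1% to 68.1%, 53.1% to 74.2% and 47.7% to 74.0%. On that scale Clec4f at 24 h still fell, by 0.69 on the log2 scale. Vsig4, Timd4 and Folr2, at −0.49, −0.52 and −0.62, were no longer called, and Cd5l was called higher at 0.75. Each of these values moved by about the shift of all genes.

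Ratios among the genes within a section need no scaling between sections. Marco made up 3.09% to 4.12% of the UMIs of the 7 resident genes at 0 h, 41.0% and 48.1% at 24 h, 30.7% and 35.4% at 36 h, and 17.5% to 25.2% at 48 h. The share of Clec4f was 36.1% to 37.4% at 0 h, 14.2% and 11.7% at 24 h and 18.4% to 24.8% at 48 h. It overlapped with 0 h at no time. Cd5l kept a share between 27.6% and 41.0% in all sections. The C1q chains gave 0.956, 0.965 and 1.02 UMIs per resident UMI at 0 h, 0.636 and 0.613 at 24 h, and 0.679 and 0.983 at 36 h. At 48 h the ratio was 0.831, 0.866, 1.03 and 1.09. Marco is part of its denominator, so a rise of Marco lowers this ratio by itself. The UMIs of C1qa per UMI of Clec4f, a ratio without Marco, were 0.838, 0.880 and 0.887 at 0 h. They were 1.19 and 1.31 at 24 h, 0.852 and 1.69 at 36 h, and 1.17, 1.003, 1.31 and 1.14 at 48 h. Clec4f itself was called lower at 24 h and 36 h.

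The chains of C1q, which enter the protein in equal numbers, did not keep their transcript ratio. C1qb made up 36.4%, 35.8% and 37.7% of C1q UMIs at 0 h, 48.2% and 49.7% at 24 h, and 47.1% and 40.2% at 36 h. In the 48 h sections it held 43.6%, 44.6%, 45.6% and 44.2%. All 8 injured sections were above the 0 h sections, and the share was highest at 24 h. The share of C1qa was 31.6% to 33.2% at 0 h, 26.6% and 25.1% at 24 h and 23.5% to 25.9% at 48 h. C1qc at 48 h (29.9% to 31.1%) lay within its 0 h range of 29.7% to 32.0%. These shares are descriptions and were given no test.

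**Figure D2:**
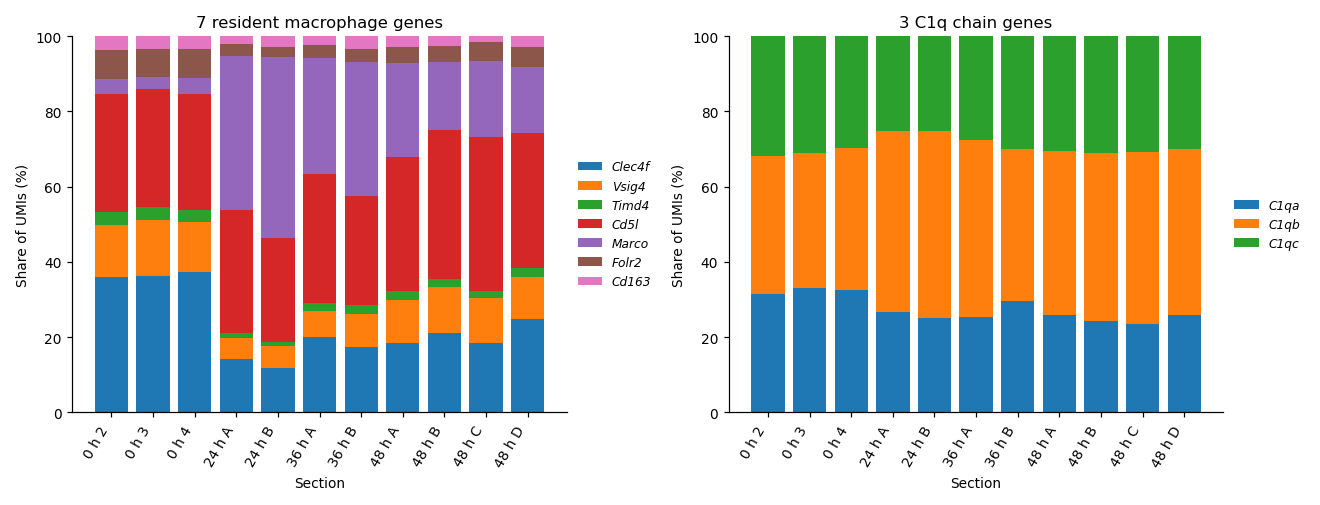
Share of the UMIs of the 7 resident genes held by each resident gene, and share of the C1q UMIs held by each chain, in percent (y axis, 0 to 100) for each of the 11 sections (x axis). Marco grows from 3.09% to 4.12% at 0 h to 41.0% and 48.1% at 24 h, and C1qb from at most 37.7% at 0 h to at least 40.2% in every injured section.

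Other macrophage genes and the genes around them, from lists of known markers, were read beside these. Over all genes tested, 23.1% were called higher and 18.6% lower at 24 h. These shares were 16.8% and 12.4% at 36 h, and 23.3% and 20.9% at 48 h. Of 14 further Kupffer cell genes, 2 rose and 3 fell at 24 h, 3 rose and 1 fell at 36 h, and 6 rose and 1 fell at 48 h. Hmox1, which breaks down haem, rose by 2.39 ± 0.29 on the log2 scale at 24 h (adjusted p = 0.00021). Spic, a factor of iron-recycling macrophages, rose by 1.76 ± 0.18 (adjusted p = 6.7e-05). Fcna, a ficolin of the lectin complement pathway, fell by 0.55 (SE 0.15, adjusted p = 0.015). Adgre1, which encodes F4/80, was not called at any time against 0 h. Of 6 signals that feed the Kupffer cell niche, 3 rose and 1 fell at each time. Gdf2, the stellate cell ligand BMP9, stood at 12.7, 13.6 and 17.3 CPM at 0 h and 2.65 and 2.46 at 24 h (log2 fold change −2.50 ± 0.41, adjusted p = 0.00098). It was at 7.50 and 20.5 CPM at 36 h and 16.0 to 25.8 at 48 h. Csf1, the growth factor of macrophages, rose at 24 h by 1.35 ± 0.17 (adjusted p = 0.00022).

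Of 9 other genes of the classical complement pathway and its regulators, 1 rose and 3 fell at 24 h, 1 rose and 1 fell at 36 h, and none rose and 5 fell at 48 h. C1ra and C1s1, the proteases that C1q activates, fell by 0.85 (SE 0.21, adjusted p = 0.0074) and 0.72 (SE 0.15, adjusted p = 0.0032) at 24 h, where C1qb was at 0.24 ± 0.32 (adjusted p = 0.58). At 48 h C1ra was at −0.998 ± 0.17 (adjusted p = 0.00089) and C1qb at 0.78. C3, the central complement protein, rose by 0.87 ± 0.15 at 24 h (adjusted p = 0.0012).

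Markers of incoming myeloid cells moved with the same time points. Of 8 recruited monocyte genes 5 rose at 24 h, 5 at 36 h and 8 at 48 h, with none falling. Their summed level was 209 to 235 CPM at 0 h, 342 and 354 at 24 h, 248 and 422 at 36 h and 551 to 1006 at 48 h. Of 8 genes shared by all macrophages, 3, 2 and 6 rose and none fell, with sums of 419 to 454 CPM at 0 h and 914 to 1651 at 48 h. Of 8 genes of lipid-associated macrophages 7, 6 and 7 rose and 1 fell at each time, yet their summed level was 842 to 1420 CPM at 0 h, 548 to 775 at 24 h, 620 to 718 at 36 h and 940 to 1840 at 48 h. All 5 tested of 6 neutrophil genes rose at each time, and Ly6g, with 0 to 3 UMIs per section, did not pass the filter on low counts. Of 6 sinusoidal endothelial genes 4 fell at 24 h, 3 at 36 h and 4 at 48 h, and 1 rose, at 24 h. Of 6 stellate and myofibroblast genes 1 rose and 3 fell at 24 h, 3 rose and 3 fell at 36 h, and 3 rose at 48 h. Of 6 dendritic and B cell genes none was called at 24 h, and 1 rose at 36 h and at 48 h. Marco and C1qb are not restricted to Kupffer cells, and the part of other macrophages in their levels was not tested.

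Spots of each section were then ranked by a score of 12 portal hepatocyte genes and split into 3 equal groups. The top group (portal-rich) was compared with the bottom group (portal-poor) in summed counts. In uninjured liver the genes leaned to the portal side. Marco showed it most, with 15.2 against 9.49, 14.8 against 6.54 and 18.8 against 8.79 plain CPM (without TMM) in portal-rich and portal-poor spots of the 3 sections. Its level was higher in portal-rich spots of each 0 h section, with a log2 ratio of 1.02 ± 0.13 (adjusted p = 3.0e-05). Cd5l (0.31 ± 0.07, adjusted p = 0.0026), C1qa (0.24, adjusted p = 0.023), C1qb (0.24, adjusted p = 0.047) and C1qc (0.25, adjusted p = 0.026) were called as well. Thus 5 of the 10 were called, against 11.4% of 13988 genes. The other 5 had log2 ratios of 0.16 to 0.36 that did not pass the test. Without 0 h 3 or without 0 h 4, 1 of the 10 was called, and C1qb lost its call in 6 of the 11 fits without a section. Ranked by 23 central hepatocyte genes in place of the portal ones, all 10 were called higher in central-poor spots at 0 h, from 0.34 ± 0.06 for Folr2 to 1.06 ± 0.09 for Marco, where 15.8% of all genes were called. The direction at 0 h was the same under both rankings.

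In injured sections the direction of the called genes did depend on the ranking at 36 h and 48 h. At 24 h Clec4f, Timd4 and Cd163 were positive under both. The central ranking gave them 0.47, 0.37 and 0.28, with Timd4 and Cd163 not called. By the portal ranking, Clec4f (0.60, adjusted p = 0.0081), Timd4 (0.70, adjusted p = 0.0026) and Cd163 (0.97, adjusted p = 0.0045) were higher in portal-rich spots at 24 h, where 33.1% of all genes were called. Without 24 h B, 0 of the 10 were called there, against 2460 genes in all. Total-count scaling called 5 of the 10 there, 1 higher in portal-rich spots and the rest lower. At 36 h Cd5l (−0.26), Marco (−0.47), C1qa (−0.38), C1qb (−0.54) and C1qc (−0.47) were lower in portal-rich spots (31.9% of all genes called). Without 36 h B, C1qa (−0.22), C1qb (−0.26), C1qc (−0.24) and Cd5l (−0.22) were no longer called. Without 36 h A, Cd5l (−0.28) and Marco (−0.37) were not, and C1qb was at −0.79. At 48 h 9 of the 10 were lower, from −0.53 for Cd163 to −1.24 ± 0.07 for C1qb, with 66.7% of all genes called. Clec4f was at −0.18 ± 0.10 (adjusted p = 0.13). In the 48 h sections A to D, C1qb stood at 114, 122, 242 and 192 plain CPM in portal-rich spots and at 340, 399, 760 and 636 in portal-poor spots. By the central ranking all 10 genes were higher in central-poor spots at 48 h, from 0.54 ± 0.05 for Clec4f to 1.16 ± 0.05 for C1qb (55.7% of all genes called). At 24 h 8 were called higher (3.18% of all genes called) and at 36 h 10 (5.98%). Spots poor in portal genes and spots poor in central genes were thus both high in these transcripts at 48 h. Both groups also had a lower hepatocyte score than their counterparts, at 3.54 to 3.71 against 3.75 to 3.79 for the portal ranking. For the central ranking, which shares Cyp2e1 with the hepatocyte score, it was 3.50 to 3.64 against 3.88 to 3.92.

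The change of the portal lean itself was tested as a difference between times. Against 0 h it differed for 4 of the 10 genes at 24 h (21.6% of all genes), 5 at 36 h (22.4%) and 10 at 48 h (47.1%), all toward portal-poor spots. Marco was at −0.85 ± 0.17, −1.50 ± 0.17 and −1.80 ± 0.15 on the log2 scale. At 24 h 1 was called without 0 h 3 or without 24 h B and 7 without 36 h B, and at 36 h 9 without 36 h A. Cd5l at 24 h was at −0.49 without 24 h A and at −0.12 without 24 h B, with its call lost in 5 of the 11 fits. C1qa at 24 h was at −0.26 without 24 h B, and not called, and C1qb at 36 h was at −0.50 without 36 h B. With the central ranking Marco alone differed at 24 h (−0.47 ± 0.11, adjusted p = 0.029) and 36 h (−0.48 ± 0.12, adjusted p = 0.020), toward a weaker lean to central-poor spots (2.03% and 3.52% of all genes called). At 48 h 8 of the 10 differed (30.9% of all genes), toward a stronger one, and Clec4f (0.05) and Marco (−0.18) did not pass the test. Total-count scaling moved the median of all genes by −0.0423 in the 0 h portal contrast and by −0.301 to −0.425 in the injured ones. The share of calls that were higher in portal-rich spots went from 49.3% to 35.4% at 0 h, 52.7% to 12.98% at 24 h, 51.2% to 13.04% at 36 h and 46.2% to 15.1% at 48 h. In the differences from 0 h it went from 58.4% to 15.3%, 56.2% to 18.4% and 51.8% to 17.98%.

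**Figure D3:**
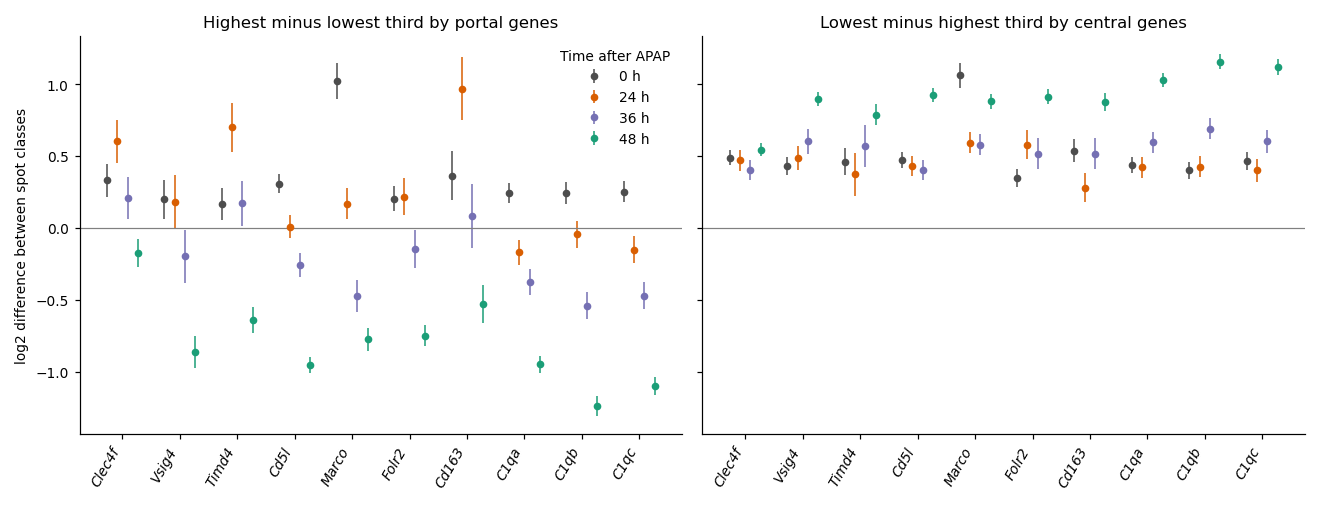
Left, fitted log2 ratio of each gene between portal-rich and portal-poor spots with its SE (y axis, 0 marked). Genes are on the x axis and colours mark the time after APAP. Right, the same for central-poor against central-rich spots. On the left the 0 h points lie above 0, with Marco highest, and the 48 h points lie below 0 for all 10 genes. On the right the 48 h points lie above 0 for all 10.

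Spots with few hepatocyte transcripts were then set apart. A spot was hepatocyte-low if its score of 6 hepatocyte genes, read at 5000 UMIs per spot, was under the mean 1st percentile of the 0 h sections. There were 8, 31 and 26 such spots at 0 h, 66 and 38 at 24 h, 19 and 24 at 36 h, and 230, 67, 294 and 118 at 48 h. They were compared with spots at least 3 steps of 100 µm away (far spots) in the injured sections with at least 20 of them. This left out 36 h A, so the 36 h comparison had 1 section and takes its error from the other times. A spot picked for few hepatocyte transcripts holds by that choice a larger share of the transcripts of all other cells, and TMM scaling corrects for this in part.

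At 48 h all 10 genes were higher in hepatocyte-low than in far spots, where 62.6% of 14333 genes were called in either direction. C1qb had the highest log2 ratio of the 10, at 1.37 ± 0.05 (adjusted p = 2.1e-29), and Clec4f the lowest, at 0.41 ± 0.05. C1qc was at 1.19, Cd5l at 1.09, C1qa at 1.08, Folr2 at 1.003, Vsig4 at 0.95, Marco at 0.94, Cd163 at 0.86 and Timd4 at 0.59. In plain CPM, C1qb was 3.69, 3.44, 3.86 and 3.86 times as high in hepatocyte-low as in far spots of the 48 h sections. The ratio was 2.43 and 2.83 at 36 h, 1.69 and 1.60 at 24 h, and 0.617, 0.998 and 1.03 at 0 h. Clec4f was 2.06, 2.01, 1.86 and 1.80 times as high at 48 h and 1.09 and 1.07 times at 24 h. The ratio of C1qb exceeded that of Clec4f in every injured section, and at 0 h neither gene had a ratio above 1.03.

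At 24 h 5 of the 10 were called (16.6% of all genes). C1qc (0.59 ± 0.11), C1qa (0.56 ± 0.11), Cd5l (0.38 ± 0.10, adjusted p = 0.0026) and C1qb (0.33 ± 0.09) were higher in hepatocyte-low spots. Cd163 was lower (−1.07 ± 0.33, adjusted p = 0.016), on 14 and 3 UMIs in those spots of A and B. In plain CPM its ratio was 0.950 in A and 0.247 in B, and the log2 ratio was −2.41 without 24 h A and −0.42, not called, without 24 h B. Cd5l was at 0.60 without 24 h A and at 0.26, not called, without 24 h B, and C1qb at 0.28, not called, without 24 h A. Marco, the gene with the largest rise over time, was at 0.14 ± 0.10 there (adjusted p = 0.38), with ratios of 1.40 and 1.52 in plain CPM. In 36 h B, Marco (0.61 ± 0.16), C1qa (0.63), C1qb (1.03 ± 0.13) and C1qc (1.02) were higher (8.99% of all genes called). Total-count scaling added 0.394, 0.466 and 0.53 to the median of all genes at 24 h, 36 h and 48 h. The share of higher calls went from 33.1% to 82.8%, 31.9% to 78.6% and 51.15% to 83.1%. At 24 h 3 of the 10 were called without 24 h B, 2 with hepatocyte-low spots taken at the 5th percentile, and 1 with scores read at 2000 UMIs. At 48 h all 10 kept their call in each of these.

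In the spots that touch them, 6 of the 10 genes were higher than in far spots of the injured sections (19.5% of all genes called). C1qb was higher by 0.39 ± 0.05, C1qc by 0.37, C1qa by 0.32, Vsig4 by 0.24, Cd5l by 0.21 and Marco by 0.19 on the log2 scale. Without 36 h B Vsig4 was at 0.12 and not called. Clec4f was at −0.03 ± 0.05 (adjusted p = 0.81). With the 5th percentile, or with scores at 2000 UMIs, 1 of the 10 was called in these spots. Total-count scaling raised the median of all genes by 0.195 and the share of higher calls from 38.01% to 85.7%, and turned Clec4f to 0.17, with a call. Read at 5000 UMIs per spot, the 3 C1q chains together gave 1050 UMIs per 100 hepatocyte-low spots of 48 h C, 488 at 1 step, 341 at 2 steps and 342 at 3 steps. In 48 h A these were 563, 257, 176 and 179, in 48 h B 636, 347, 188 and 193, and in 48 h D 1082, 563, 309 and 312. Most of the excess in these sections was gone at 1 step, though more of it remained there in B and D than in A and C. The level at 2 steps was close to that at 3 steps.

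**Figure D4:**
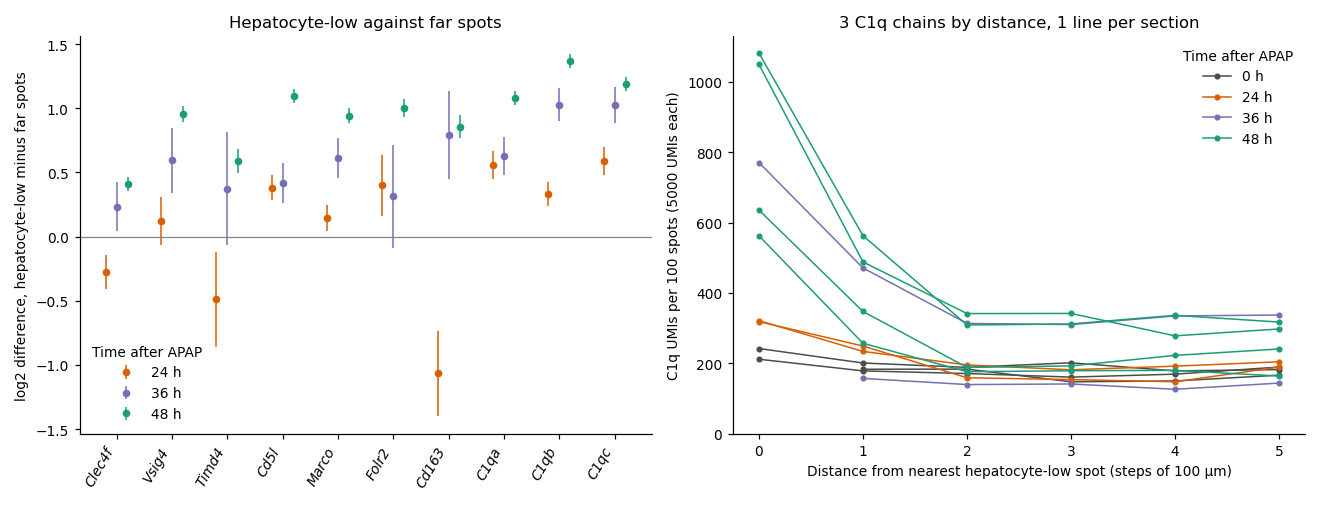
Left, log2 ratio of each gene between hepatocyte-low and far spots with its SE at 24 h, 36 h and 48 h. Right, C1q UMIs per 100 spots of 5000 UMIs (y axis, from 0) by distance from the nearest hepatocyte-low spot in steps of 100 µm (x axis), 1 line per section: in 48 h C the line falls from 1050 at 0 steps to 341 at 2 steps.

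Marco also became a common transcript among spots. Read at 5000 UMIs per spot, 6.58%, 4.94% and 5.90% of spots held a Marco UMI at 0 h, 68.0% and 69.2% at 24 h, and 44.2% and 62.3% at 36 h. At 48 h 41.4%, 37.3%, 51.0% and 42.5% did. Without thinning the shares were 19.9% to 25.6% at 0 h and 95.3% and 95.8% at 24 h. For C1qb the share was 42.5% to 46.3% at 0 h and 54.2% to 76.8% at 48 h. The variance over the mean of C1qb per spot, which is 1 for a Poisson count, was 1.17 to 1.23 at 0 h and 1.71 to 2.44 at 48 h. That of Cd5l was 1.15 to 1.21 and 1.68 to 2.14. Clec4f stayed at 1.19 to 1.35 in the 48 h sections. Neighbouring spots also became more alike in C1qb, with a Moran's I of 0.0193 to 0.0795 at 0 h and 0.138 to 0.231 at 48 h.

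**Figure D5:**
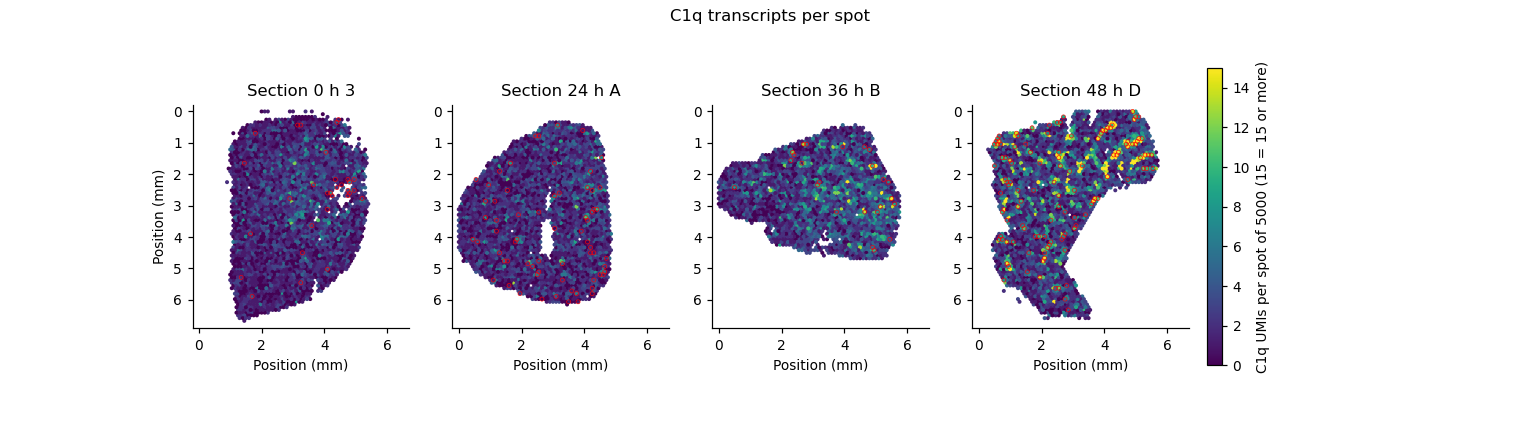
Summed UMIs of the 3 C1q chains per spot of 5000 UMIs (colour, 15 standing for 15 or more) at each spot's position in mm, in the section with the most UMIs of each time point. Red rings mark hepatocyte-low spots. In 48 h D the high spots form patches at and beside them, and at 0 h no such patches are seen.

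Across the spots of a section the summed C1q chains followed the summed resident genes with a Pearson r of 0.31 to 0.37 at 0 h (2653 spots at most) and 0.54 to 0.66 at 48 h. The r of C1q with the 6 hepatocyte genes was 0.07 to 0.12 at 0 h, −0.17 and −0.27 at 24 h, −0.37 and −0.55 at 36 h and −0.59 to −0.65 at 48 h. That with the recruited monocyte genes, Lyz2 among them, was 0.19 to 0.25 at 0 h and 0.60 to 0.71 at 48 h. Spots of a section share a library and a fixed total of 5000 UMIs, of which the hepatocyte genes hold a large part, so these values describe the sections and carry no test. Single genes, which have fewer UMIs per spot than a sum, were more loosely tied. Marco had 5.50 to 7.05 UMIs per 100 spots at 0 h and 55.7 to 92.8 at 48 h. The part of such low counts in the r of single genes was not tested. Clec4f with C1q had an r of 0.22 to 0.27 at 0 h, 0.10 and 0.14 at 24 h and 0.28 to 0.38 at 48 h, and Marco with C1q one of 0.05 to 0.12 at 0 h and 0.36 to 0.43 at 48 h.

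Over the 11 sections, which share their time points, Clec4f and Folr2 had the most similar levels of the 10 genes (r = 0.95), followed by C1qa and C1qc (0.94), Clec4f and Timd4 (0.92) and C1qb and Cd5l (0.92), and Clec4f and Marco had an r of −0.71. Likeness was also ranked over 9125 genes with a mean of at least 5 CPM, by the r of log2 levels with the mean log2 level of each list. The profiles closest to the C1q chains were those of Lst1 (r = 0.95), Adgre1 (0.94), Rab5c (0.93), Cd38 (0.92) and Cfp (0.92). The closest to the mean of the resident genes were Bcam (0.96), Marcks (0.96), Gnai2 (0.95), Lst1 (0.95) and Aif1 (0.95). That mean joins genes that moved in opposite directions, such as Clec4f and Marco, so a gene close to it need not follow any single member. Across the spots of the 0 h sections, the genes closest to the resident genes were Tmsb4x (mean r = 0.26), Wfdc17 (0.22), Lyz2 (0.19), Cd74 (0.18) and Csf1r (0.18), out of 6134 genes ranked.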

How the data were processed

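Visium libraries of 11 mouse liver sections were analysed from the deposited raw UMI counts (31053 genes and 4992 barcodes per section). The authors made these counts with Space Ranger 1.0.0 on mm10 and, per the labels, used Seurat 4.1.1 downstream; no normalisation or spot filter had been applied. Groups came from the sample labels. On-tissue spots were kept if they had 800 genes or more and a mitochondrial share of 20% or less, after the filter in the study's methods, and were summed per section or per spot class. Sums were tested in R 4.3.3 with edgeR 4.0.16 (filterByExpr, TMM scaling, robust quasi-likelihood fits), two-sided, with Benjamini-Hochberg adjustment over all genes of a comparison and a threshold of 0.05. All sections entered the time fit, with a common coefficient of variation of 0.194 between sections. Portal-rich, portal-poor, hepatocyte-low and far classes were fitted with the section as a block and coefficients of 0.0604 and 0.0492. Scores and spot descriptions used spots thinned to 5000 UMIs, and 1 to 260 spots per section below that were left out of them (most in 0 h 4). Each class needed 20 spots. The steps were tested on simulated counts.

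The 10 genes and the marker lists were chosen with earlier results of these data known. The genes named besides the 10 were members of those lists, called or not, and the 5 genes most alike in level. The list members were picked in part for a known role in Kupffer cells, their niche or complement. Replicate sections differed by a chi-square of 42.1 to 226 per gene, so none was counted as a duplicate. Sections totalled 31292663 to 67045372 UMIs. The counting error of a summed gene with 651 UMIs or more, as Marco had, is small beside the spread between sections. The alternatives were total-count scaling, no filter on low counts, only the groups compared, DESeq2 1.42.0, a block for section letters, other score cut-offs and depths, a ranking by central genes, and leaving out each section.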

Additional observations from a re-analysis of the deposited data

Results flagged for a closer look

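The lean of these genes between portal-rich and portal-poor spots differed between injured and uninjured sections by a test of the difference itself (edgeR, adjusted p under 0.05 over 13988 genes). All differences pointed toward portal-poor spots. At 24 h minus 0 h they were −0.8546 for Marco, −0.3011 for Cd5l, −0.4016 for C1qc and −0.4119 for C1qa on the log2 scale. At 36 h minus 0 h they were −1.495 for Marco, −0.5674 for Cd5l, −0.7833 for C1qb, −0.7217 for C1qc and −0.6184 for C1qa. At 48 h minus 0 h they were −1.798 for Marco, −1.059 for Vsig4, −1.263 for Cd5l, −1.482 for C1qb, −1.348 for C1qc, −1.192 for C1qa, −0.5062 for Clec4f, −0.8919 for Cd163, −0.9529 for Folr2 and −0.8047 for Timd4.

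These values depend on which hepatocyte genes ranked the spots. With the central ranking Marco alone kept a called difference at 24 h and 36 h, and 8 of the 10 were called at 48 h in the direction away from central-rich spots. In the 48 h sections both the portal-poor and the central-poor spots had the lower hepatocyte score, and the part of that loss in these values was not tested.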

How the results depend on the processing

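Sections are the only replicates, several per time point but from 1 mouse by the methods, and the hepatocyte-low comparison at 36 h has 1 section. Depth limits Timd4 and Cd163, which had few UMIs in small spot classes. Counts of the 10 genes called are written as "of the 10", and other counts are over all genes tested.

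With total-count scaling 3 of the 10 were called at 24 h against 0 h, 5 at 48 h, and 7506 genes at 36 h. In the portal ranking 2 of the 10 were called at 0 h and 5 at 24 h. Of these 5, 1 was higher in portal-rich spots and the rest lower, with Cd5l turning to −0.30. The main fit at 24 h called 3, all higher. In hepatocyte-low spots at 36 h 8 were called, and Clec4f beside hepatocyte-low spots turned to 0.17. With only the groups compared in the fit, 8 of the 10 were called at 24 h against 0 h, 1 gene at 36 h against 24 h and 0 at 48 h against 36 h. DESeq2 called 1 of the 10 and 1224 genes at 48 h against 36 h. The cause of these changes was not tested.

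The section letters showed no common pairing over all injured times. Over 9135 genes, the log2 difference between A and B at 24 h had an r of 0.44 with that at 36 h. The r was −0.24 for 24 h with 48 h and −0.14 for 36 h with 48 h. On sections A and B of the injured times, a replicate block gave 82 genes at 36 h against 24 h, 0 at 48 h against 36 h and 830 at 48 h against 24 h, with 0 of the 10. The same sections without the replicate block, a fit chosen after seeing the data, gave 118, 0 and 1106 genes and 1 of the 10. The 0 h sections carry numbers in place of letters and could not enter the block.

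Splitting spots into 2 groups rather than 3 left 2 of the 10 called at 0 h. Ranking by central genes, read as central-poor against central-rich, called 10 of the 10 at 0 h, 8 at 24 h with 443 genes, and 10 at 36 h with 833 genes. It reversed the log2 ratio of C1qa, C1qb and C1qc at 24 h (0.42, 0.42 and 0.40), of Vsig4, Cd5l, Marco, Folr2, C1qa, C1qb and C1qc at 36 h (0.60, 0.40, 0.58, 0.52, 0.60, 0.69 and 0.60), and of all 10 at 48 h (Clec4f 0.54, Vsig4 0.90, Timd4 0.79, Cd5l 0.92, Marco 0.88, Folr2 0.91, Cd163 0.87, C1qa 1.03, C1qb 1.16, C1qc 1.12). Differences from 0 h then numbered 1 of the 10 and 283 genes at 24 h, 1 of the 10 and 491 genes at 36 h, and 4303 genes at 48 h, with reversed values for C1qa, C1qb and C1qc at 36 h (0.16, 0.29 and 0.13) and for Clec4f, Vsig4, Timd4, Cd5l, Folr2, Cd163, C1qa, C1qb and C1qc at 48 h (0.054, 0.47, 0.33, 0.45, 0.57, 0.34, 0.59, 0.76 and 0.65).

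With hepatocyte-low spots taken at the 5th percentile, 2 of the 10 were called at 24 h, 7 of the 10 and 2309 genes at 36 h, and 1 of the 10 and 1411 genes in the spots beside them. With scores at 2000 UMIs, 1 of the 10 and 848 genes were called at 24 h (C1qa turning to −0.13, adjusted p = 0.85), and 1 of the 10 and 1833 genes beside them, and the 36 h comparison could not be fitted because no 36 h section kept 20 such spots.

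Leaving out 1 section at a time gave these ranges. Of the 10, 1 to 5 were called at 24 h against 0 h, 1 to 3 at 36 h, 0 to 1 at 36 h against 24 h and at 48 h against 36 h, and 1 to 6 at 48 h against 24 h. Over all genes the ranges were 2643 to 4880 at 36 h against 0 h, 450 to 3198 at 36 h against 24 h, 45 to 1130 at 48 h against 36 h and 2480 to 5963 at 48 h against 24 h. In the portal ranking they were 1 to 7 of the 10 and 835 to 1735 genes at 0 h, 0 to 3 of the 10 and 2460 to 4781 genes at 24 h, and 2634 to 4606 genes at 36 h. For the differences they were 1 to 7 of the 10 and 1417 to 3206 genes at 24 h, and 5 to 9 of the 10 and 1957 to 3345 genes at 36 h. In hepatocyte-low spots at 24 h they were 3 to 5 of the 10 and 1164 to 2458 genes. Log2 ratios that changed sign in the portal ranking were Cd5l (−0.18 to 0.19) and C1qb (−0.16 to 0.063) at 24 h, and Vsig4 (−0.61 to 0.34) and Folr2 (−0.45 to 0.25) at 36 h. Marco kept its call against 0 h in all 11 of these fits at each time.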

Other observations

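The remaining genes of the Kupffer cell list moved unevenly. Id3, a factor that keeps Kupffer cell identity, had a log2 fold change of 0.50 ± 0.23 at 24 h (adjusted p = 0.11 by edgeR), and at 48 h it rose by 1.01 ± 0.20 (adjusted p = 0.0023). Of the receptors for dying cells, Mertk rose by 1.33 ± 0.20 at 36 h (adjusted p = 0.0014) and was at 0.35 ± 0.17 at 48 h (adjusted p = 0.12). Axl was at 0.74 ± 0.27 at 36 h (adjusted p = 0.063) and rose by 0.89 ± 0.24 at 48 h (adjusted p = 0.011). Slc40a1, the iron exporter, fell by 0.53 (SE 0.17, adjusted p = 0.028) at 24 h, when Hmox1 and Spic rose. Of the niche ligands, Il34, a second ligand of the CSF1 receptor, rose at 36 h by 1.39 ± 0.37 (adjusted p = 0.018) and at 48 h by 1.26 ± 0.32 (adjusted p = 0.0090). Bmp10 fell by 1.16 (SE 0.37, adjusted p = 0.037) and 1.22 (SE 0.29, adjusted p = 0.0058) at these times. Dll4, a Notch ligand of endothelium, rose by 0.97 ± 0.20 at 24 h (adjusted p = 0.0032).

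Across the spots of the 48 h sections the summed C1q chains had an r of 0.45 to 0.64 with the stellate and myofibroblast genes, against 0.09 to 0.11 at 0 h, and of 0.31 to 0.39 with the neutrophil genes. The spots of a section share a library and a fixed total of UMIs.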
